A study of Mus musculus with 9 samples.

Results

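The genes described here are the enzymes and readers that write, erase or interpret marks on chromatin and DNA, measured by total RNA sequencing in mouse blastocysts obtained after intracytoplasmic sperm injection (ICSI). They were taken by the start of their symbol (Kdm, Kmt2, Setd, Nsd1, Hdac, Kat, Ehmt, Suv, Ezh, Arid, Smarc, Chd, Sirt, Dnmt, Tet, Brd, Uhrf and Trim28), which gave 121 gene IDs under 120 symbols of the 22564 genes in the table, with Hdac4 carrying 2 IDs. The rule used names and no measured values. The prefixes also took in genes whose products act outside the nucleus, such as the mitochondrial deacetylases Sirt3, Sirt4 and Sirt5, and Uhrf1bp1 and Uhrf1bp1l, which are named for binding Uhrf1.

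There were 9 libraries in 3 groups of 3, all of C57BL/6 blastocysts at day 3.5 after fertilization, and each library was made from a pool of blastocysts. The ICSI group (replicates 2, 5 and 6) came from oocytes injected with normal sperm and served as the control. The ICSI-AOA group (replicates 1, 4 and 5) received normal sperm followed by artificial oocyte activation (AOA) with ionomycin, a calcium ionophore. In the dICSI-AOA group (replicates 1, 4 and 5) the sperm were oocyte activation-deficient, a state produced by incubating isolated sperm heads and not by a mutation, and ionomycin was given as well. Deficient sperm without ionomycin are not analysed here, so the step from ICSI to dICSI-AOA changes sperm and activation together, whereas ICSI-AOA and dICSI-AOA share the ionomycin and differ in the sperm.

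These regulators carry the embryo through a period when most DNA methylation inherited from the gametes is lost and the first lineages separate. Dnmt1 with Uhrf1 copies methylation after replication, Dnmt3a and Dnmt3b with the cofactor Dnmt3l place it anew, and the Tet enzymes oxidise it. Trim28, a corepressor recruited by zinc finger proteins, helps imprinted regions keep their methylation. On histones, methyltransferases and acetyltransferases add groups that demethylases and deacetylases take away, and bromodomain proteins bind acetylated histones. The Smarc and Chd families and some Arid proteins help to slide, evict or restructure nucleosomes.

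The libraries were shallow. The deposited estimated counts corresponded to 128176 to 172307 assigned fragments a library, and 1788 to 2033 genes a library had at least 10 fragments. Widely used genes were also thin, with 68 fragments of Actb and 18 of Gapdh over the 9 libraries together. Of the markers of the labelled tissue, 6 of 14 for trophectoderm and 3 of 12 for inner cell mass and epiblast were detected. Pou5f1, Nanog and Gata3 were listed at 0 throughout, whereas Cdx2, a trophectoderm marker, had 18 fragments and was seen in all 9 libraries. The strand on which fragments were counted is not given in the sources used here, and had it been the opposite one, the values would not be levels of the genes named, limits at 0 included, which was not tested. The trophectoderm markers summed to 17 to 38 fragments in ICSI, 9 to 17 in ICSI-AOA and 15 to 18 in dICSI-AOA libraries, the inner cell mass and epiblast markers to 2 to 4, 4 to 7 and 0 to 4, and the 7 detected primitive endoderm markers to 8 to 15, 10 to 12 and 8 to 14. In the test described below, Krt8, a trophectoderm keratin, was called lower than in ICSI in ICSI-AOA (−2.15, SE 0.62, edgeR adjusted p = 0.415) as well as in dICSI-AOA (−1.69, SE 0.59, edgeR adjusted p = 0.513). Its exons overlap Gm36026 on the other strand by 101 bp. Elf5, a trophectoderm transcription factor, was called lower in ICSI-AOA (−1.53, SE 0.64, edgeR adjusted p = 0.599). Elf5 had 2, 24 and 5 fragments in ICSI and 4, 4 and 3 in ICSI-AOA, so the groups overlapped. The 24 were in ICSI replicate 5. Only 3 trophectoderm markers passed the filter of that test, and only 1 marker of inner cell mass and epiblast. The latter was not called, at −0.09 in ICSI-AOA and −1.93 in dICSI-AOA against ICSI. Markers of oocyte, of cumulus and granulosa cells and of sperm each summed to no more than 2 fragments in any library. The part of cell composition in the values below was not tested, and in pooled embryos fewer cells of a type and less RNA per cell cannot be told apart.

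Over the 9 libraries 99 of the 121 genes (81.8%) had at least 1 fragment, against 53.7% of all genes. Between 60 and 69 of them were detected in an ICSI library, 59 to 71 in an ICSI-AOA library and 56 to 65 in a dICSI-AOA library, so the ranges of the 3 groups overlapped. A total of 22 genes were at 0 everywhere, 41 had 1 to 9 fragments in all, 58 had at least 10, and 33 were seen in every library. Only 15 averaged at least 10 fragments a library. The set held 7389 of 1370462 fragments, or 0.539%, close to the 0.536% of genes it makes up, and 0.504% to 0.579% of any single library.

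**Figure D1:**
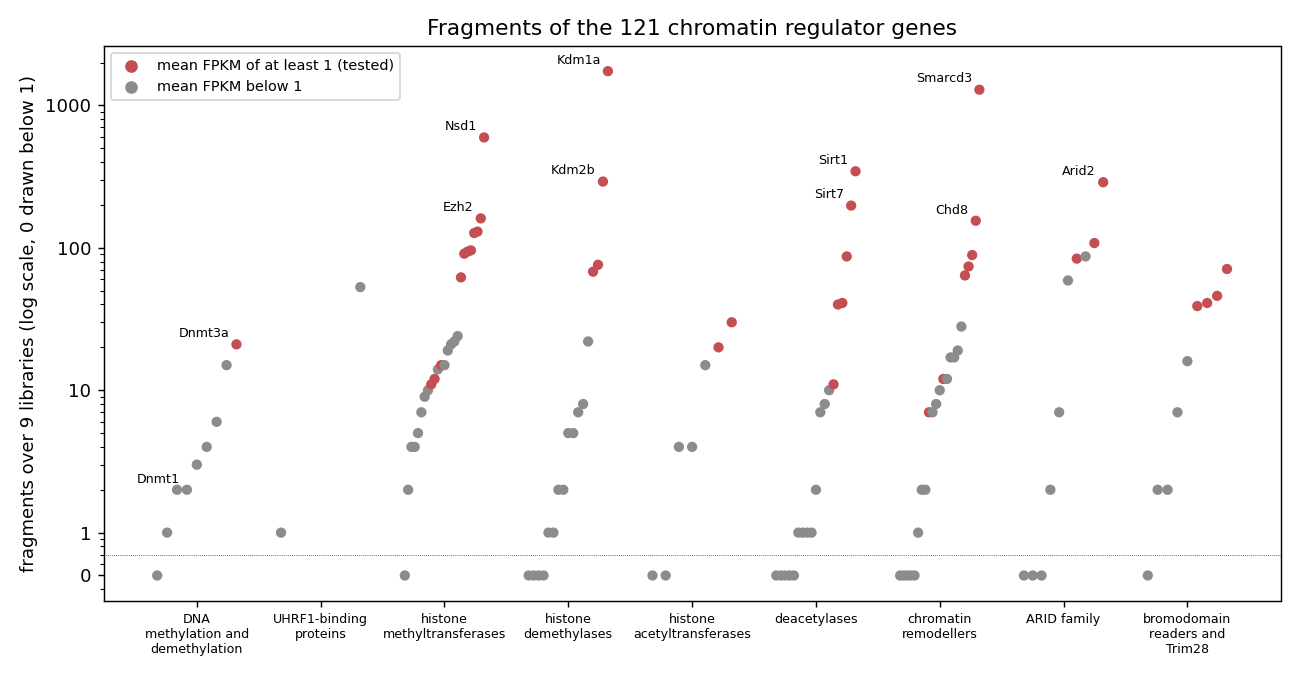
Fragments of each of the 121 genes summed over the 9 libraries (log axis, with genes at 0 drawn at the bottom), grouped by role; red points averaged an FPKM of 1 or more and were tested, grey points did not. Kdm1a (1741) and Smarcd3 (1290) stand above all others, and the genes of DNA methylation end at 21, the total of Dnmt3a.

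The fragments were concentrated in few genes. Kdm1a, the demethylase also known as Lsd1, held 23.6% of the fragments of the set and Smarcd3, a variable subunit of SWI/SNF remodelling complexes, held 17.5%, and the 10 genes with the most fragments held 70.3%. Kdm1a had 162, 218 and 226 fragments in the ICSI libraries, 203, 178 and 178 in ICSI-AOA, and the dICSI-AOA libraries had 192, 149 and 235. The 3 groups overlapped for Kdm1a, at 1406 ± 179, 1206 ± 94.6 and 1204 ± 219 CPM (mean ± SD, n = 3), which are fragments per 1000000 of the library scaled by TMM, edgeR's trimmed mean of M-values. Against ICSI, its log2 fold change was −0.22 (SE 0.19) for either AOA group. Smarcd3 had 128, 135 and 156 fragments in ICSI, 133, 143 and 161 in ICSI-AOA and, in dICSI-AOA, 190, 127 and 117, again with overlapping groups. Exons of Smarcd3 overlap those of Chpf2 on the other strand by 2466 bp, while Kdm1a has no such neighbour. By the deposited FPKM, Kdm1a averaged 189, Smarcd3 36.7 and Arid4b 18.9 over the 9 libraries, the 3 highest means of the set. These means did not follow fragments per length of annotated exon. Arid4b had 84 fragments on 16965 bp, whereas Nsd1 had 596 on 17483 bp and a mean FPKM of 4.24. Kdm1a and Smarcd3 had 1741 and 1290 fragments on 5179 and 5120 bp. The cause was not tested, and the FPKM filter used below rests on the same values.

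In the machinery of DNA methylation, 8 of 9 genes were detected but together they gave 54 fragments. Dnmt3a accounted for 21, with 1, 3 and 0 fragments in ICSI, 4, 7 and 0 in ICSI-AOA, and the dICSI-AOA libraries had 3, 3 and 0. Tet3, the oxidase known for acting on the paternal genome of the zygote, had 15 fragments spread over 7 libraries. The 2 fragments of the maintenance enzyme Dnmt1 lay in ICSI-AOA replicate 4 and dICSI-AOA replicate 5, which corresponds to 1.46 CPM over the pooled libraries (95% Clopper-Pearson interval 0.177 to 5.27). Its partner Uhrf1 likewise had 2 fragments, in ICSI-AOA replicates 1 and 4. Uhrf2 had 3 fragments, Dnmt3b 4, Tet1 6 and Tet2 1. Dnmt3l was listed at 0 in every library, which allows up to 2.19 CPM by the limit of 3 counts of the total. These intervals and limits cover counting error only. Dnmt3a was the single gene of the 9 that passed the FPKM filter of the test described below, and it was not called, at 1.29 (SE 1.09), 0.43 (SE 1.19) and −0.86 (SE 1.01) on the log2 scale for ICSI-AOA against ICSI, dICSI-AOA against ICSI and dICSI-AOA against ICSI-AOA. Its exons overlap Dnmt3aos on the other strand by 133 bp. With no filter none of the other 7 detected genes was called in any comparison, at 1 to 15 fragments each.

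Trim28 was present in every library, with 13, 2 and 3 fragments in ICSI, 6, 3 and 3 in ICSI-AOA, and the dICSI-AOA libraries had 5, 3 and 8. The highest and the lowest value both lay in the ICSI group, and none of its 3 contrasts exceeded 0.71 in size (SE 0.68 to 0.72). The 22 genes at 0 in all libraries included the acetyltransferases Kat2a and Kat5, the deacetylases Hdac6, Hdac8 and Hdac9, the demethylases Kdm4a, Kdm4c, Kdm4d and Kdm5d, the methyltransferase Suv39h1, and Smarcc1, a core subunit of SWI/SNF. Hdac1 had 11 fragments and Hdac2 2, although both are broadly used deacetylases.

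The comparisons were limited to genes whose FPKM averaged 1 or more, which left 38 of the 121 (31.4%) and 19.1% of all genes. A gene was called where edgeR's quasi-likelihood test gave an unadjusted p under 0.05 with a fold above 1.3, the thresholds of the study. These calls leave many chance results across 4304 genes, so p-values adjusted over all of them (Benjamini-Hochberg) are given with the fold change of each gene called in this way. No tested member passed an adjusted p of 0.05 in edgeR in any of the 3 comparisons, while 1, 1 and 4 members were at an unadjusted p under 0.05. DESeq2 and limma likewise gave 0 members past an adjusted p of 0.05. In simulated counts at this depth, 46% to 51% of the genes given a 2-fold change were called in the right direction. For a 4-fold change this was 74% to 79%. These calls used the unadjusted p under 0.05 with a fold above 1.3. The simulation took all 4304 genes and a spread set by abundance alone. It therefore does not give the recovery at an adjusted p of 0.05, nor that of the members.

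In ICSI-AOA against ICSI, which asks what ionomycin adds after normal sperm, 1 of 38 members was called, lower in ICSI-AOA, against 7.06% of all tested genes. The gene was Arid4b, a subunit of the Sin3 histone deacetylase complex. In dICSI-AOA against ICSI 1 of 38 was called, Nsd1, higher in dICSI-AOA, with 6.58% called over all genes. Between the groups that share ionomycin, dICSI-AOA against ICSI-AOA, 4 of 38 were called against 6.62% overall: Nsd1, Arid4b and Ezh2 were higher and Ezh1 lower with deficient sperm. The shares of members called (2.63%, 2.63% and 10.5%) rest on 1 to 4 genes and are not read as a result about the set. The median log2 fold change of the 38 was −0.01, −0.11 and −0.09 in the 3 comparisons, beside −0.02, −0.01 and −0.02 over all tested genes. The comparisons share libraries in pairs and are not independent of one another.

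Nsd1, a methyltransferase that acts on histone H3 in gene bodies and intergenic regions, was the one member averaging at least 10 fragments a library whose dICSI-AOA values did not overlap those of the other groups. It had 50, 62 and 55 fragments in the ICSI libraries, 43, 62 and 53 in ICSI-AOA, and the dICSI-AOA libraries had 100, 77 and 94. Every dICSI-AOA library lay above all 6 others, while the ICSI and ICSI-AOA groups overlapped. The means were 388 ± 2.15, 341 ± 60.3 and 568 ± 52.9 CPM (SD, n = 3). The log2 fold change of Nsd1 was 0.55 (SE 0.21, edgeR adjusted p = 0.550) against ICSI and 0.74 (SE 0.21, edgeR adjusted p = 0.396) against ICSI-AOA. ICSI-AOA against ICSI differed by −0.19 (SE 0.22). The deposited FPKM of Nsd1 were 2.69, 3.57 and 3.37, then 3.40, 3.38 and 3.33, then 7.17, 5.30 and 5.99 in the same order of libraries, with the same separation. The gene (ENSMUSG00000021488) lies on chromosome 13 at 55209782 to 55318325 of mm10, plus strand, and none of its exons overlaps an annotated gene on the other strand by 100 bp or more.

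Arid4b had 10, 6 and 10 fragments in ICSI, 6, 5 and 1 in ICSI-AOA, and the dICSI-AOA libraries had 16, 14 and 16. The dICSI-AOA libraries were the 3 highest and lay close together, ICSI and ICSI-AOA overlapped at ICSI replicate 5, and ICSI-AOA replicate 5 was the lowest. Scaled, these were 61.9 ± 21.2, 25.9 ± 17.1 and 96.6 ± 2.93 CPM (SD, n = 3). Between the AOA groups Arid4b differed by 1.87 (SE 0.51, edgeR adjusted p = 0.345). It was lower in ICSI-AOA than in ICSI by −1.21 (SE 0.55, edgeR adjusted p = 0.650), and dICSI-AOA against ICSI gave 0.66 (SE 0.45, edgeR adjusted p = 0.818), which was not called although the groups did not overlap. The call against ICSI was lost without ICSI-AOA replicate 5 (−0.77), ICSI replicate 2 (−1.02) or ICSI replicate 6 (−1.09), whereas the difference between the AOA groups was called in all 18 alternatives. Arid4b (ENSMUSG00000039219, chromosome 13, 14050929 to 14199603 of mm10, plus strand) shares 257 bp of exon with Ggps1 on the other strand, a gene with 12 fragments in all. Since the strand of counting is not known, reads of such partners cannot be told apart.

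Ezh2 and Ezh1 encode alternative catalytic subunits of Polycomb repressive complex 2, which methylates histone H3 at repressed genes, and they were called in opposite directions between the AOA groups. Ezh2 had 12, 23 and 14 fragments in ICSI, 8, 12 and 18 in ICSI-AOA, and the dICSI-AOA libraries had 22, 13 and 39. All 3 groups overlapped, and the highest value was that of dICSI-AOA replicate 5. Ezh2 was higher in dICSI-AOA than in ICSI-AOA by 0.91 (SE 0.39, edgeR adjusted p = 0.681). Without dICSI-AOA replicate 5 the difference was 0.44 and not called, and it was also lost without ICSI-AOA replicate 1 (0.67) or replicate 4 (0.87). Ezh1 had 7, 20 and 3 fragments in ICSI, 5, 21 and 17 in ICSI-AOA, and the dICSI-AOA libraries had 3, 7 and 8. One high library in the ICSI group and a pair in the ICSI-AOA group stood apart from the rest, and the groups overlapped. Ezh1 was lower in dICSI-AOA than in ICSI-AOA by −1.27 (SE 0.57, edgeR adjusted p = 0.714), a call lost without ICSI-AOA replicate 4 (−0.89), ICSI-AOA replicate 5 (−1.13) or dICSI-AOA replicate 1 (−0.95). Neither gene was called against ICSI, where Ezh2 gave 0.45 (SE 0.38) and Ezh1 −0.84 (SE 0.60). On mm10, Ezh2 (ENSMUSG00000029687) is on chromosome 6, 47530274 to 47597527, minus strand, and shares 174 bp of exon with Gm26625 on the other strand. Ezh1 (ENSMUSG00000006920) is on chromosome 11, 101191115 to 101226463, minus strand, with no such partner.

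**Figure D2:**
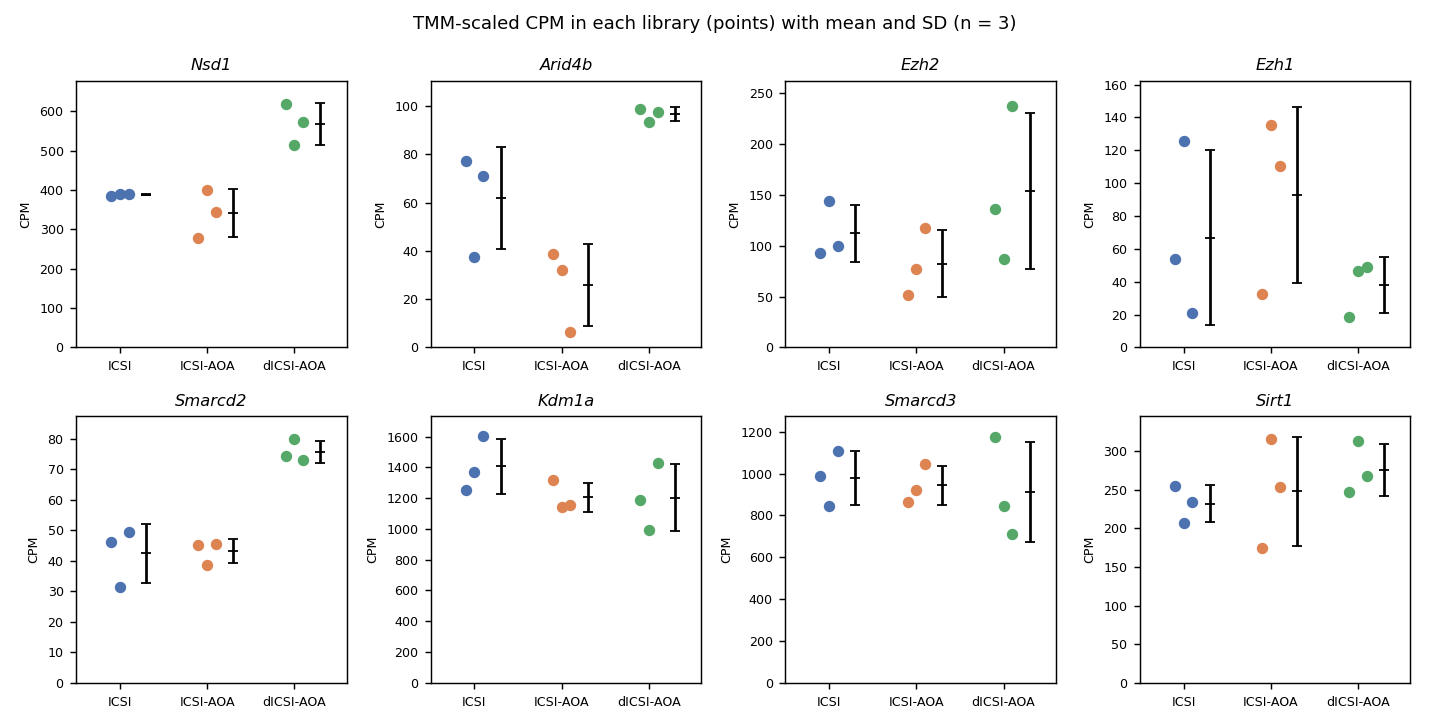
TMM-scaled CPM of 8 members in each of the 9 libraries (points, n = 3 a group) with the group mean and SD in black; every axis starts at 0 and has its own scale. All 3 dICSI-AOA points lie above the other 6 for Nsd1, Arid4b and Smarcd2, whereas Ezh2, Ezh1, Kdm1a, Smarcd3 and Sirt1 overlap between the groups.

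The promoters of Arid4b, Ezh2 and Ezh1, 3 of the 4 called members, are shown because CpG dinucleotides, printed in capitals, are the sites of the DNA methylation that the Dnmt and Tet enzymes act on. Each is 300 bases of RefSeq sequence (GRCm38.p6), from 250 before to 50 after the RefSeq start, read in the direction of transcription. For Arid4b and Ezh2 that start lies inside the bounds given above, which are those of the locus the authors deposited for each gene. Their positions are chr13:14063534-14063833 (plus strand) for Arid4b, chr6:47594981-47595280 (minus strand) for Ezh2 and chr11:101226414-101226713 (minus strand) for Ezh1.
Arid4b: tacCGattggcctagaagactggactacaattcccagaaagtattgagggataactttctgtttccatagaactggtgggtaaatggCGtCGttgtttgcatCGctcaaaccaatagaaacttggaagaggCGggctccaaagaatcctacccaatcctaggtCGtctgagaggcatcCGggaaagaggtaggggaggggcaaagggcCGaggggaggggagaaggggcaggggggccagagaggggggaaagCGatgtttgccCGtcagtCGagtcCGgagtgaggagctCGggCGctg
Ezh2: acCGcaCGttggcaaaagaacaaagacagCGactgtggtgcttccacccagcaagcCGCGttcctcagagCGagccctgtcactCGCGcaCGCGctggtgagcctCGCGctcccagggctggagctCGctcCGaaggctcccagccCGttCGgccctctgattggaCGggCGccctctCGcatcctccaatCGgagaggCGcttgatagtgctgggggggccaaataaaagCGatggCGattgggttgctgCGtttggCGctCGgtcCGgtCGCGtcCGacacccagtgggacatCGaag
Ezh1: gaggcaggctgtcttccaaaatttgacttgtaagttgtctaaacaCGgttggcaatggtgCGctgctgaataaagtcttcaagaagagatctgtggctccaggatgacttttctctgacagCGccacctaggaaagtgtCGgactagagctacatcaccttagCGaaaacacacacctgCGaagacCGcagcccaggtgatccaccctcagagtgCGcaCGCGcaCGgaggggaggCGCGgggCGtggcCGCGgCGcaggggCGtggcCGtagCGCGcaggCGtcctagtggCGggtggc

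Arid4b had 14 CpG in this window, Ezh2 31 and Ezh1 23, beside a median of 7 over 27025 promoters of the same length and 23 over the 95 members with an entry. At least as many CpG were found in 36.9% of all promoters for Arid4b, 10.3% for Ezh2 and 21.6% for Ezh1. The CCAAT box (CCAAT, searched on both strands) was present in Arid4b and Ezh2, in 37.9% of all promoters and in 37.9% of the 95 members, and the GC box (GGGCGG, both strands) was in none of the 3 windows, in 35.9% of all and in 69.5% of the 95 members. No measurement of methylation or binding at these promoters was used here.

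Among the 38 tested members 2 had groups that did not overlap between ICSI-AOA and ICSI (13.3% of all tested genes), Brd2 and Kat2b, both higher in ICSI-AOA. Kat2b, an acetyltransferase of the SAGA and ATAC coactivator complexes, had 1, 2 and 2 fragments against 7, 8 and 3, and 5, 0 and 2 in dICSI-AOA, with a difference of 1.67 (SE 0.84, edgeR adjusted p = 0.703) that was not called. Kat2b was called in 9 of 17 alternatives, among them total counts (1.74), the authors' own scaling factors in place of TMM (1.85), limma on log2(FPKM + 0.1) (3.37) and without ICSI-AOA replicate 5 (1.99), dICSI-AOA replicate 1 (1.67) or replicate 4 (1.67). The FPKM of Kat2b per estimated count differed up to 5.56-fold between libraries with at least 3 fragments of it. The limma value therefore does not reflect the counts alone. Brd2, a bromodomain reader, had 7, 8 and 4 against 11, 9 and 11, at 0.59 (SE 0.51). Between dICSI-AOA and ICSI 4 did not overlap (11.5% of all), Nsd1, Arid4b, Smarcd2 and Smarcc2, and between the AOA groups 4 (12.0% of all), among them Nsd1, Arid4b and Smarcd2. These shares, 2 or 4 of 38, are near or below the background of each comparison. Of the 15 members with a mean of at least 10 fragments, 0, 1 and 1 did not overlap, beside 16.1%, 13.8% and 13.9% of all genes at that level, and the 1 was Nsd1 in both.

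Smarcd2, the paralogue of Smarcd3 in SWI/SNF complexes, had closely spaced values. There were 6, 5 and 7 fragments in ICSI, 7, 6 and 7 in ICSI-AOA and 12 in each dICSI-AOA library, so the last group stood above both others. The difference was 0.84 (SE 0.45, edgeR adjusted p = 0.756) against ICSI and 0.80 (SE 0.44, edgeR adjusted p = 0.779) against ICSI-AOA, neither of which was called. With the authors' factors Smarcd2 was called against ICSI (1.18). Smarcd3 gave −0.10 (SE 0.20) and −0.05 (SE 0.20) in the same contrasts. Smarcc2, a scaffold subunit of SWI/SNF, had 9, 13 and 10 in ICSI and 10, 6 and 8 in dICSI-AOA (−0.55, SE 0.43).

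**Figure D3:**
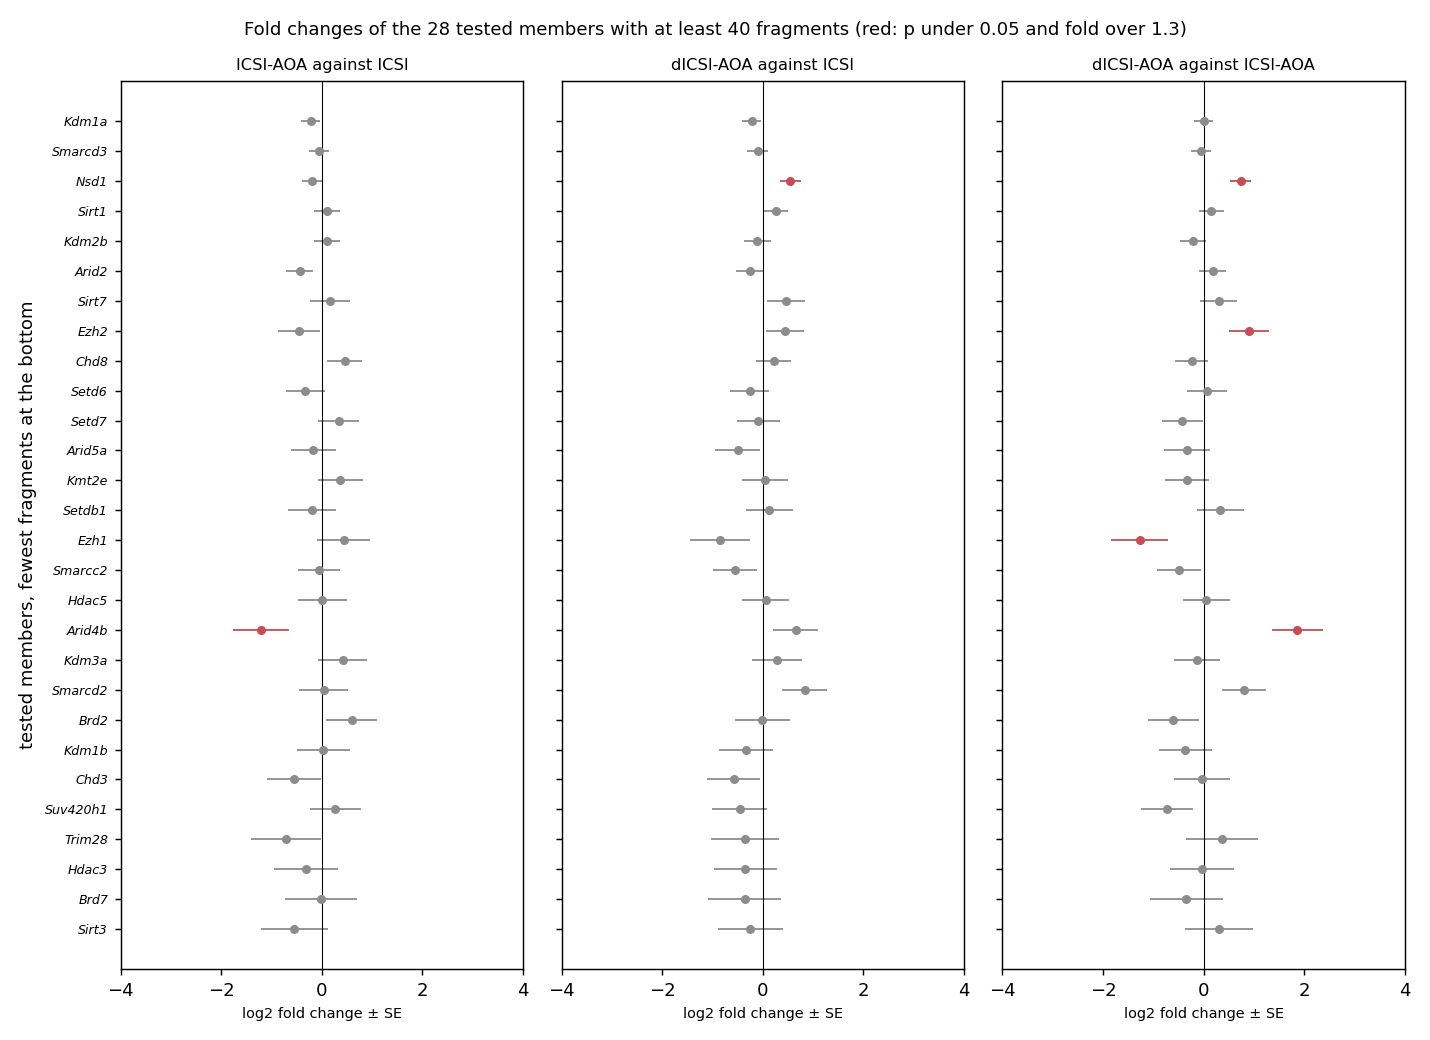
Log2 fold changes with standard errors (edgeR) of the 28 tested members with at least 40 fragments over the 9 libraries in the 3 comparisons, with fewest fragments at the bottom; red marks an unadjusted p under 0.05 with a fold above 1.3. The red points are Arid4b on the left, Nsd1 in the middle and Nsd1, Arid4b, Ezh2 and Ezh1 on the right, and the error bars are wider for Sirt3 at the bottom than for Kdm1a at the top.

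The other abundant members were not called in any comparison by the edgeR test described above. Sirt1, a nuclear NAD-dependent deacetylase, had 33 fragments in each ICSI library, 27, 49 and 39 in ICSI-AOA, and the dICSI-AOA libraries had 40, 47 and 44. Before scaling all dICSI-AOA values exceeded those of ICSI, but after scaling for depth the groups overlapped, at 232 ± 23.8 and 276 ± 33.7 CPM (0.25, SE 0.26). Sirt1 was called higher in dICSI-AOA than in ICSI with the authors' factors (0.62) and with limma on log2(FPKM + 0.1) (0.60). Sirt7, a nucleolar deacetylase of the same family, ranged from 16 to 19 in ICSI and from 11 to 44 in dICSI-AOA. Kdm2b, which recruits a Polycomb complex to CpG islands and overlaps Rnf34 by 627 bp, had 21, 37 and 34 fragments in ICSI and 41, 33 and 32 in ICSI-AOA, beside 29, 27 and 38 with deficient sperm. Arid2, a subunit of the PBAF form of SWI/SNF, had 22, 48 and 37, then 30, 30 and 24, then 30, 28 and 40, and differed by −0.44 (SE 0.27) in ICSI-AOA against ICSI. Chd8, a remodeller, had 11 to 16 fragments in ICSI, 16 to 23 in ICSI-AOA and 15 to 20 in dICSI-AOA. Setd6, a lysine methyltransferase with known non-histone substrates, had 12 to 21, 11 to 17 and 8 to 19.

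Summed by role, the scaled fragments overlapped between the groups in most classes. The 17 histone demethylases, led by Kdm1a, summed to 1512 to 1956 CPM in ICSI, 1503 to 1782 in ICSI-AOA and 1293 to 1777 in dICSI-AOA. The 25 histone methyltransferases gave 1063 to 1123, 855 to 1184 and 1102 to 1351, with Nsd1 the largest contributor. With total counts as the scaling the methyltransferases gave 1039 to 1116 in ICSI and 1138 to 1360 in dICSI-AOA. With the authors' own scaling they gave 124 to 167 and 206 to 229 estimated counts. Under either of these scalings the 2 groups did not overlap. With TMM the class averaged 1096 CPM in ICSI and 1262 in dICSI-AOA, and Nsd1 alone averaged 388 and 568. The sum of dICSI-AOA replicate 4 also holds the 21 fragments of Suv39h2. No sum without Nsd1 was made. The 23 remodellers gave 1311 to 1524, 1186 to 1418 and 998 to 1584, and the 19 deacetylases 468 to 571, 363 to 644 and 514 to 682. With the authors' own scaling, which moves all genes up against ICSI, the deacetylases of ICSI (64.1 to 74.8) and dICSI-AOA (96.4 to 115.8) did not overlap. The 10 genes of the ARID family summed to 552 to 586 in ICSI, above the 273 to 454 of ICSI-AOA and the 421 to 493 of dICSI-AOA, but with the authors' own scaling in place of TMM these sums overlapped (65.8 to 82.0, 42.5 to 89.4 and 78.2 to 82.3 estimated counts). Arid1a, a defining subunit of the BAF form of SWI/SNF, contributed 11, 16 and 15 fragments in ICSI against 8, 10 and 2 and 5, 18 and 2, and with a mean FPKM of 0.994 it fell just short of the filter. The sums are given as a description, with no test.

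**Figure D4:**
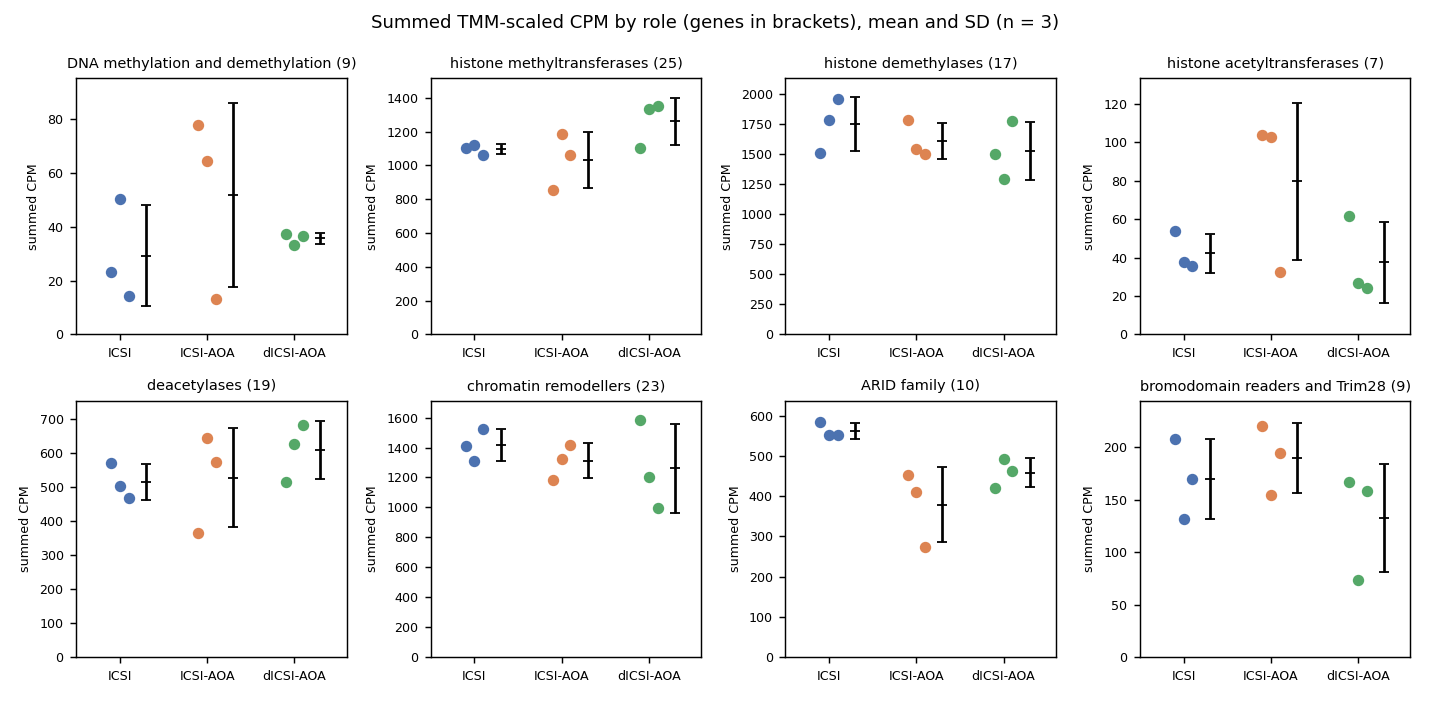
Summed TMM-scaled CPM by role in each library (points, n = 3 a group) with the group mean and SD in black; the number of genes is in brackets and every axis starts at 0. The ARID family is the class in which the ICSI libraries (552 to 586) lie above the other 6, and the sums for DNA methylation rest on 54 fragments.

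Single libraries dominated several thin members. All 21 fragments of Suv39h2, a heterochromatin methyltransferase, lay in dICSI-AOA replicate 4, and its exons overlap Dclre1c on the other strand by 357 bp, a gene with 10 to 26 fragments in every library. Of the 28 fragments of Chd6, 16 lay in ICSI replicate 5. Both fell below the FPKM filter, and with no filter Suv39h2 was called in both contrasts of dICSI-AOA, past an adjusted p of 0.05, which rests on that library. An exon overlap of 100 bp or more with a gene on the opposite strand was annotated for 31 of the 121 members, which held 36.6% of the fragments of the set. Over all genes, 4286 of 22564 had such an overlap and held 60.5% of the fragments.

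The wider machinery was followed in 7 lists of partner genes (DNA methylation, Polycomb, NuRD with Sin3 and CoREST, remodelling complexes, acetyltransferase complexes, histone methylation and histone chaperones), with 225 genes in the table and 61 tested. In ICSI-AOA against ICSI 0 were called higher and 3 lower (4.92%), in dICSI-AOA against ICSI 1 and 4 (8.20%), and in dICSI-AOA against ICSI-AOA 5 and 2 (11.5%), to be read against 7.06%, 6.58% and 6.62% of all tested genes. The direction of these calls depended on the scaling: against ICSI, the authors' own scaling called 3 partners up and 1 down for ICSI-AOA, then 8 up and 1 down for dICSI-AOA, and limma on log2(FPKM + 1) gave 4 up and 0 down, then 4 up and 1 down. None of the 6 tested partners of DNA methylation, 6 of Polycomb and 4 of NuRD, Sin3 and CoREST was called in any of the 3 comparisons.

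Several called partners had the following values. Hjurp, the chaperone of the centromeric histone variant CENP-A, had 26, 41 and 21 fragments in ICSI, 14, 9 and 13 in ICSI-AOA, and the dICSI-AOA libraries had 15, 33 and 21. Every ICSI-AOA library lay below every ICSI library, by −1.38 (SE 0.36, edgeR adjusted p = 0.282), and Hjurp was higher in dICSI-AOA than in ICSI-AOA by 0.90 (SE 0.37, edgeR adjusted p = 0.660). Ubn2, a subunit of the HIRA complex for histone H3 deposition, was lower in dICSI-AOA than in ICSI by −0.73 (SE 0.22, edgeR adjusted p = 0.377) and in ICSI-AOA by −0.47 (SE 0.22, edgeR adjusted p = 0.675). Nap1l1, a chaperone of histones H2A and H2B, had 9, 2 and 5 fragments in ICSI, 15, 3 and 8 in ICSI-AOA, and the dICSI-AOA libraries had 2, 0 and 3. The difference of Nap1l1 between the AOA groups was −2.34 (SE 0.80, edgeR adjusted p = 0.528). Ino80, the ATPase of its own remodelling complex, had 13, 10 and 9 fragments in ICSI-AOA against 20, 27 and 24 in dICSI-AOA, a difference of 1.11 (SE 0.35, edgeR adjusted p = 0.439) with no overlap. Gsg2, the haspin kinase of histone H3, had 96, 91 and 112 fragments in ICSI, 90, 60 and 85 in ICSI-AOA, and the dICSI-AOA libraries had 52, 19 and 38. It was the one gene of these lists past an adjusted p of 0.05 (−1.62, SE 0.26, edgeR adjusted p = 0.00624 in dICSI-AOA against ICSI). In that comparison it was also the only 1 of 4304 tested genes past that level. Gsg2 was counted in the histone methylation list, and the lists were chosen with earlier results of these data known. Whsc1l1, a relative of Nsd1 in the same methyltransferase family, was called lower in dICSI-AOA than in ICSI, at 26, 20 and 25 fragments against 34, 37 and 42 (−0.82, SE 0.27, edgeR adjusted p = 0.443), the opposite direction to Nsd1. Prmt7, an arginine methyltransferase that overlaps Smpd3 by 247 bp, was called lower in ICSI-AOA than in ICSI (−0.53, SE 0.23, edgeR adjusted p = 0.599) and higher in dICSI-AOA than in ICSI-AOA (0.74, SE 0.22, edgeR adjusted p = 0.402). Smyd5 and Tada1, at no more than 13 fragments a library, were called higher in dICSI-AOA than in ICSI-AOA, by 1.28 (SE 0.54, edgeR adjusted p = 0.669) and 1.89 (SE 0.77, edgeR adjusted p = 0.660), and Tada1 overlaps Pogk by 1054 bp.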

How the data were processed

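The labels give 9 libraries of total RNA from blastocysts. Per the labels and the study's methods, reads were trimmed with cutadapt 1.9.3, aligned to mm10 with HISAT2 and summarised with Cuffdiff, and the authors deposited estimated counts and FPKM for each gene and library in 1 table, with a column of the span of each locus that was not used. The labels and the methods name different stranded kits, and the strand used in counting is not given in the sources used here. The estimated counts were whole fragments times a factor of each library (95.7% to 96.2% of values whole within 0.01 after division by it). They were therefore divided by that factor and rounded to fragments. Columns of the authors' own comparisons were not used.

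Fragments were tested with edgeR 4.0.16 (quasi-likelihood, TMM, 1 mean per group, all 9 libraries, R 4.3.3) for genes averaging an FPKM of 1 or more, with no replicate block. The SE is the log2 fold change divided by the root of F. The test was checked on simulated counts of 4304 genes, of which 200 were changed: of unchanged genes 3.87% to 4.58% were called. DESeq2 1.42.0 and limma 3.58.1 on log2(FPKM + 1) or log2(FPKM + 0.1) were alternatives. Exon overlaps came from the GENCODE annotation of mm10 (120 of 121 members matched).

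The study describes its replicates as independent. The members and lists were chosen with earlier results of these data known. Named genes were all members called, all with groups that did not overlap and a mean of at least 10 fragments, the 10 with most fragments, the Dnmt, Uhrf and Tet genes with Trim28, and up to 3 called genes of each partner list with the smallest p. Smarcd2, Smarcc2, Brd2, Kat2b, Arid1a, Suv39h2, Chd6 and the undetected or thin genes listed were named after their values were seen. Not every member is reported here.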

Additional observations from a re-analysis of the deposited data

How the results depend on the processing

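Counts of called members were 1, 1 and 4 for ICSI-AOA against ICSI, dICSI-AOA against ICSI and dICSI-AOA against ICSI-AOA, and those of partner genes 3, 5 and 7. In ICSI-AOA against ICSI, total counts as the scaling gave 2 members, no FPKM filter 4, and DESeq2, a mean of at least 10 fragments, or leaving out members that overlap the other strand gave 0 (edgeR had 1 member at an unadjusted p under 0.05); partners were 1 with DESeq2 and 5 with no filter. In dICSI-AOA against ICSI, the authors' factors (estimated counts as deposited, with no TMM) gave 5 members, no filter 4 and an FPKM minimum of 5 gave 0. Limma gave 2 members with a pseudocount of 1 and 3 with 0.1. In the same comparison partners were 9 with the authors' factors, 2 with the FPKM minimum of 5 and 3 with at least 10 fragments. Replicate 5 is the only number that ICSI shares with the AOA groups. With a replicate block, contrasts with ICSI therefore rest on 1 ICSI library, and their counts are left out. Between the AOA groups members were 7 with no filter and 2 each with DESeq2, the FPKM minimum of 5, the fragment filter and without members that overlap the other strand; partners were 4 with DESeq2 and with either stricter filter. The fitted set shrank with the stricter filters, and for the other settings the cause was not tested. Leaving out 1 library in turn gave 0 to 2, 1 to 3 and 2 to 5 members and 1 to 7, 4 to 7 and 5 to 9 partners.

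The authors' factors moved the median of all genes to 0.25 in ICSI-AOA against ICSI and 0.34 in dICSI-AOA against ICSI, and 87.9% and 91.8% of calls over all genes were then higher, against 42.4% and 46.6% with TMM (66.8% against 54.7% between the AOA groups); medians of the 38 members were 0.30 and 0.26, close to that shift. Nsd1 against ICSI was called in 17 of 18 alternatives. The exception was the replicate block (0.56), which leaves 1 ICSI library for that contrast. Nsd1 and Arid4b were called in 18 of 18 between the AOA groups, with adjusted p from 0.164 to 0.999 and from 0.0567 to 0.999. Arid4b in ICSI-AOA against ICSI was lost in 9 of 18, the replicate block among them. Between the AOA groups Ezh1 was lost in 8 of 18 and Ezh2 in 6 of 19. All kept their direction. Sirt7 (authors' factors, or without dICSI-AOA replicate 1) and Chd8 (limma) were called higher in dICSI-AOA than in ICSI, and Arid2 was called in ICSI-AOA against ICSI without ICSI replicate 2. On fragments, Chd8 gave 0.22 (SE 0.35) in dICSI-AOA against ICSI. Its FPKM per estimated count differed up to 3.68-fold between libraries. That measure exceeded 2-fold in 4 of the 15 members averaging at least 10 fragments (Sirt7, Chd8, Setd6 and Arid5a), and the cause was not tested. Replicate numbers shared by the AOA groups did not mark a common litter or day in the labels, so the numbers were not taken as pairs. Deviations of same-numbered libraries correlated at 0.06, −0.01 and 0.06, beside −0.08 to 0.02 for libraries with different numbers. These correlations were not tested and do not settle whether the libraries are paired.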
